A study of Arabidopsis thaliana with 60 samples.

Results

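The genes for the Rubisco small subunit and for 5 further proteins of carbon fixation were followed in young Arabidopsis thaliana plants that differed in ploidy and in the number of parents. They were chosen by gene identifier as 9 members of the 21450 genes listed: RBCS1A (AT1G67090), RBCS1B (AT5G38430), RBCS2B (AT5G38420), RBCS3B (AT5G38410), RCA (AT2G39730), GAPA1 (AT3G26650), GAPB (AT1G42970), PRK (AT1G32060) and SBPase (AT3G55800). All 9 were found in each of the 15 plants.

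The plants formed 3 groups of 5, all with an ein3-1 mutant as mother and all in the Col-0 background as far as the methods say. Biparental diploids (BD) came from a 2n mother and a 2n pollen donor carrying pRPS5a::mGAL4-VP16/- and pUAS::BAR-YFP/-. Biparental triploids (BT) came from a 2n mother and a 4n donor with the same constructs, and triparental triploids (TT) from double pollination, in which 1 egg cell takes up sperm of 2 pollen donors; the labels do not spell out the constructs of those donors. The RPS5a promoter is active in most tissues and drives the GAL4 activator, which switches on the BAR-YFP gene. Seedlings of all 3 groups were selected on 0.5 MS medium with 25 mg/l glufosinate-ammonium. They were moved to soil at day 9, checked for YFP and ploidy at day 17 and harvested as whole aerial tissue at day 18, after growth in 16 h light and 8 h dark at 23 °C. Since every group had an ein3-1 mother and passed the selection, neither can be set against plants without it here. The crosses set triploids against diploids with 2 parents (BT against BD) and the mode of origin at the same ploidy (TT against BT). BT and BD differ in more than ploidy. The extra genome of BT came from the father, which shifts the balance of maternal and paternal genomes. Its 4n donor line was also made with colchicine. TT and BT differ in more than a second father, since BT alone had a 4n donor. The authors state that TT plants also inherit the cytoplasm of 2 sperm. They add that most TT plants come from seeds in which embryo and endosperm have the same ploidy. These differences cannot be told apart here.

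Rubisco fixes CO2 onto ribulose 1,5-bisphosphate and is built from large subunits, encoded by rbcL in the chloroplast genome, and small subunits, encoded by the RBCS family in the nucleus. Rubisco activase (RCA) frees the enzyme's active sites of inhibitory sugar phosphates. In the Calvin cycle that follows, chloroplast glyceraldehyde-3-phosphate dehydrogenase, made of A and B subunits (GAPA1 and GAPB), reduces the fixed carbon. Sedoheptulose-1,7-bisphosphatase (SBPase) acts in the regeneration of the acceptor, and phosphoribulokinase (PRK) makes ribulose 1,5-bisphosphate anew. These genes are among the most highly expressed of a green leaf, and their transcription responds to light, to sugars and to the time of day.

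The RBCS genes resemble each other, which matters for how short reads are divided among them. RBCS1A lies alone on chromosome 1 (25048158 to 25049667, minus strand). RBCS3B (15376988 to 15378642), RBCS2B (15380907 to 15382071) and RBCS1B (15383167 to 15385320) stand side by side on the minus strand of chromosome 5, all in the TAIR10.1 build of RefSeq. The labels name TAIR10 for the authors' alignment. The following exonic coding stretch of 75 bases, the length of 1 read, is shown for the 4 genes from RefSeq, with capitals at bases that differ from RBCS3B.
RBCS1A, chr1:25048898-25048972, minus strand: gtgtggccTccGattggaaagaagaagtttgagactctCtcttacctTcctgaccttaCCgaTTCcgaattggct
RBCS1B, chr5:15384821-15384895, minus strand: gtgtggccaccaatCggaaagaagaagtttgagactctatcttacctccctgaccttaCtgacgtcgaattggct
RBCS2B, chr5:15381643-15381717, minus strand: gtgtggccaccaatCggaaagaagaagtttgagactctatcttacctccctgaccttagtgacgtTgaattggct
RBCS3B, chr5:15377971-15378045, minus strand: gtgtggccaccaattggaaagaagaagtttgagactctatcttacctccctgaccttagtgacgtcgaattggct

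In this stretch RBCS1A differed from RBCS3B at 9 bases, and RBCS1B and RBCS2B differed from it at 2 bases each. Over the whole coding sequence, RBCS1A was 89.9% to 90.1% identical to each of the others, whereas the 3 genes of chromosome 5 were 96.7% to 97.3% identical to one another. The authors' alignment allowed up to 2 mismatches a read. With that allowance, 7.89% of the 75-base windows of the RBCS1A coding sequence also occurred in another RBCS gene. The corresponding share was 93.0% for RBCS1B, 93.4% for RBCS2B and 70.6% for RBCS3B. Over whole transcripts, which include the less similar untranslated ends, the shares were 3.10% for RBCS1A, 57.3% for RBCS1B, 51.7% for RBCS2B and 29.7% for RBCS3B. Each gene entered with 1 annotated transcript model, on whose length the share depends. That of RBCS1B had 840 bases, and a longer model of 1894 bases was not used. Without any mismatch, 0 of 1194 transcript windows of RBCS1A, 164 of 766 of RBCS1B, 43 of 861 of RBCS2B and 170 of 1136 of RBCS3B were shared. RBCS1A thus shared few windows, while part of the reads of the 3 genes of chromosome 5 can match more than 1 of them, so that their division is uncertain to that extent, and results on them are also given for the sum of the family.

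The DNA upstream of the 9 genes was searched for the G-box (letters CACGTG, bound by bZIP and bHLH factors) and the I-box (letters GATAAG), elements known from light-regulated RBCS promoters. The window was the 250 bases before the annotated transcript start nearest the coding sequence, read on both strands. The G-box was found in 5 of the 9 genes, against 7.54% of 21281 listed protein-coding genes searched in the same way. The I-box was found in 4 of the 9, the 4 RBCS genes, against 12.7% of all genes. RBCS1A, RBCS2B and RBCS3B held both, as did 1.13% of all genes, and GAPA1, GAPB and SBPase held neither. The 4 RBCS genes are 1 family, and those of chromosome 5 are neighbours of closely similar sequence. Their matches are therefore not independent of each other. The 30 bases around the G-box are printed from RefSeq TAIR10.1, with the motif in capitals, and for RBCS1B, which has none there, those around its I-box nearest the start.
RBCS1A G-box, chr1:25049491-25049520, minus strand: ggaattatcttcCACGTGgcattattccag
RBCS2B G-box, chr5:15382177-15382206, minus strand: ggagttttctgcCACGTGatcttatcctag
RBCS3B G-box, chr5:15378506-15378535, minus strand: ggagttttctgcCACGTGgccttatcctag
RCA G-box, chr2:16573579-16573608, minus strand: ataaacatattcCACGTGgaccaatcaaaa
PRK G-box, chr1:11532014-11532043, plus strand: attagaatctccCACGTGtcaattcaaata
RBCS1B I-box, chr5:15385303-15385332, minus strand: aaagaaagataaGATAAGggtgtcaacacc

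In RBCS2B and RBCS3B the G-box was followed 2 bases later by an I-box on the opposite strand (read as cttatc), so that the motif pairs of these neighbours lie close together. The annotated spans of RBCS1A, RBCS3B and RCA extend past the 30 bases printed for each and that of RBCS1B ends within them, so that the 250 bases searched for these genes lie partly inside the annotated gene. A match shows only that the letters are present in the window.

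The values come in 3 scales. The normalized count is the number of reads of a gene divided by 1 size factor per plant. TPM, a relative abundance scaled to a fixed total per plant, also divides by transcript length and is used where levels of different genes are compared, and rlog is the authors' regularized log2 value. The totals behind them ranged from 19534646 to 30756482 reads per plant. The 9 genes held 5.34% ± 0.880 (SD, n = 15 plants) of all TPM. In whole aerial tissue, fewer green cells and less of these RNAs per cell cannot be told apart, and normalized values say nothing of the total RNA of a diploid or triploid cell.

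The tissue was leafy as labelled. Summed over 4 mesophyll markers, TPM lay between 14116 and 28804 in the 15 plants, whereas the 2 listed root markers (WOX5 and CASP1) summed to at most 0.950 TPM and the 5 floral markers to at most 5.10 TPM. Of the other root markers, COBL9 and EXPA7 are not among the listed genes. In 4 plants a stretch of a chromosome was raised as a whole, measured as the median log2 difference from the 15-plant median over genes averaging 50 or more normalized counts. The genes of distal chromosome 1 (from AT1G70250 on) stood at 0.50 in BD replicate 4. In BT they stood at 0.34 for replicate 3 and at 0.24 for replicate 5. Chromosome 4 stood at 0.34 in BT replicate 2 and chromosome 5 at 0.30 in BT replicate 5. None of the 9 genes lies on chromosome 4 or on distal chromosome 1, but RBCS1B, RBCS2B and RBCS3B lie on chromosome 5.

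Levels of the 9 genes followed a stable order. Across the 15 plants, mean TPM was 22913 ± 3596 (SD, n = 15) for RBCS1A, 11715 ± 2418 for RBCS3B, 7281 ± 1370.3 for RBCS1B and 4109.7 ± 844 for RBCS2B. It was 3734 ± 910.2 for RCA, 1348 ± 212 for GAPA1, 1243 ± 238 for GAPB, 521 ± 81.2 for PRK and 517 ± 101 for SBPase. RBCS1A had the highest mean normalized count of all 21450 genes and ranked 3 by mean TPM. Each of RBCS1A, RBCS3B and RBCS1B was above the next gene in the order in 15 of 15 plants, by a mean ratio of 1.97, 1.60 and 1.78. RCA was above GAPA1 and GAPB above PRK in 15 of 15 plants as well. Within 3 neighbouring pairs the order changed between plants: RBCS2B was above RCA in 11 of 15, GAPA1 above GAPB in 11 of 15, and PRK above SBPase in 6 of 15.

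The small subunit transcripts were then summed. Their share of all TPM was 4.40% ± 0.481 (SD, n = 5) in BD, 4.13% ± 0.799 in BT and 5.27% ± 0.457 in TT. By plant it was 4.26%, 5.12%, 4.45%, 3.78% and 4.39% in BD replicates 1 to 5. It was 4.07%, 5.11%, 4.28%, 4.30% and 2.89% in BT, and 4.85%, 5.32%, 5.88%, 4.80% and 5.52% in TT. BT replicate 5 lay below every other plant, and BD replicate 2 and BT replicate 2 lay within the range of the TT plants, so that the groups overlapped.

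**Figure D1:**
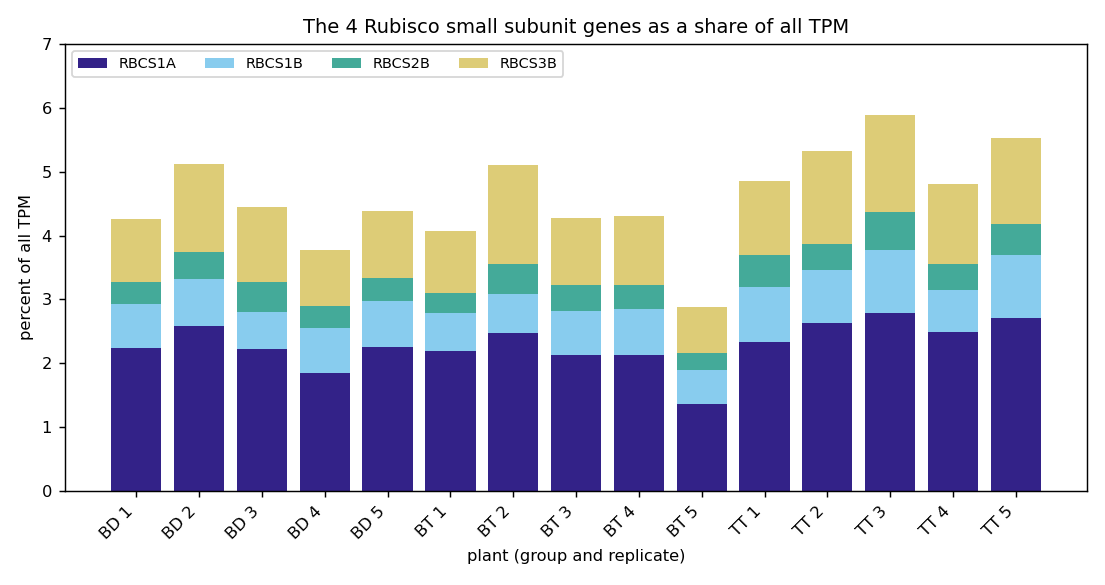
Stacked bars show TPM of RBCS1A, RBCS1B, RBCS2B and RBCS3B as percent of all TPM (vertical axis) in each of the 15 plants (horizontal axis, group and replicate). The bar of BT replicate 5 ends at 2.89% and that of TT replicate 3 at 5.88%, and RBCS1A makes up about the same part of each bar.

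On the summed normalized count of the 4 genes, TT exceeded BT by 0.37 on the log2 scale, a 1.29-fold difference (p = 0.0635, 2-sided and exact, permuting 5 plants against 5). TT exceeded BD by 0.26 (1.20-fold, exact permutation test, p = 0.111), and BT differed from BD by -0.11 (exact permutation test, p = 0.635). Of 12 such tests, on 4 measures in 3 pairs of groups, none passed a Benjamini-Hochberg adjustment, with 0.667 as the smallest adjusted value. The smallest p that 5 against 5 plants allow is 0.00794. On summed TPM the same differences of TT, 0.37 over BT and 0.26 over BD, each had p = 0.0238 in the exact permutation test, and 0.143 after adjustment over the 12 tests on that alternative scale. Without BT replicate 5 the difference in normalized counts between TT and BT was 0.21 and that between BT and BD was 0.05.

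The share of RBCS1A in the family varied little. RBCS1A supplied 50.7% ± 1.43 of the RBCS TPM in BD, 49.7% ± 2.48 in BT and 49.2% ± 1.78 in TT (SD, n = 5 each). The share of RBCS1A differed by -0.990 percentage points between BT and BD, by -0.496 between TT and BT and by -1.49 between TT and BD (exact 2-sided permutation tests, p = 0.452, 0.683 and 0.167). Over all 15 plants RBCS3B supplied 25.3% ± 1.93, RBCS1B 15.9% ± 1.97 and RBCS2B 8.92% ± 0.946. By plant these shares ran from 23.2% to 30.6%, from 12.1% to 18.5% and from 7.71% to 10.7%, and that of RBCS1A from 47.3% to 53.8%. The 3 genes of chromosome 5 share reads, so the division among them is uncertain. BT replicate 2 had the highest share of RBCS3B, 30.6%, and the lowest of RBCS1B, 12.1%. In no plant did the order of the 4 genes change.

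RBCS1A, the most abundant member, was highest in TT by its mean, but its groups overlapped. Its normalized counts in BD replicates 1 to 5 were 446592, 619112, 611538, 393703 and 527965. The counts in BT were 461041, 568809, 519286, 554586 and 281126. In TT they were 506955, 609836, 632345, 651339 and 573896. All TT plants but replicate 1 lay above every BT plant, while 3 BD plants lay within the TT range. The log2 fold change was 0.36 (standard error 0.33) for TT against BT, 0.21 (0.33) for TT against BD and -0.15 (0.33) for BT against BD. These come from limma's moderated test on log2(normalized count + 1) over all 21450 genes, in which the Benjamini-Yekutieli adjusted p was 1.00 in each comparison.

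RBCS1B was the member with the clearest difference between the triploids, and this did not survive adjustment. The plants of BD had normalized counts of 90169, 113675, 104035, 97708 and 109713. Those of BT had 83783, 93189, 111945, 124731 and 71334. Those of TT had 124378, 128065, 153282, 109944 and 137917. In TT 3 of 5 plants exceeded the highest BT plant, TT replicate 4 lay below BT replicates 3 and 4, and 4 of 5 exceeded the highest BD plant. The log2 fold change was 0.45 (standard error 0.20, 1.37-fold) for TT against BT, with an unadjusted p of 0.0386 and an adjusted p of 1.00 in limma. For TT against BD it was 0.34 (0.20, unadjusted p = 0.109 in limma) and for BT against BD -0.11 (0.20). The unadjusted p for TT against BT was above 0.05 in limma in 6 of the 10 fits that left out 1 TT or BT plant: without BT replicates 1, 2 and 5 it was 0.0836, 0.0528 and 0.0774, and without TT replicates 2, 3 and 5 it was 0.0586, 0.0916 and 0.0759. Without BT replicate 5 the log2 fold change was 0.35.

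RBCS2B had log2 fold changes of 0.42 (standard error 0.24, unadjusted p = 0.0941 in limma) for TT against BT and 0.31 (0.24) for TT against BD. Its normalized counts spanned 54061 to 106142 among BD plants, 44862 to 86058 among BT plants and 78165 to 112186 among TT plants. The lowest TT plant thus lay above 3 BD plants and 3 BT plants. RBCS3B had 166860, 277819, 273910, 161294 and 210580 normalized counts in BD and 174254, 308263, 220692, 242981 and 127320 in BT. It had 214284, 289274, 300169, 277919 and 246258 in TT. Its highest plant of all was BT replicate 2 and its lowest BT replicate 5, 2.42-fold apart within 1 group, and its log2 fold change for TT against BT was 0.36 (0.29).

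**Figure D2:**
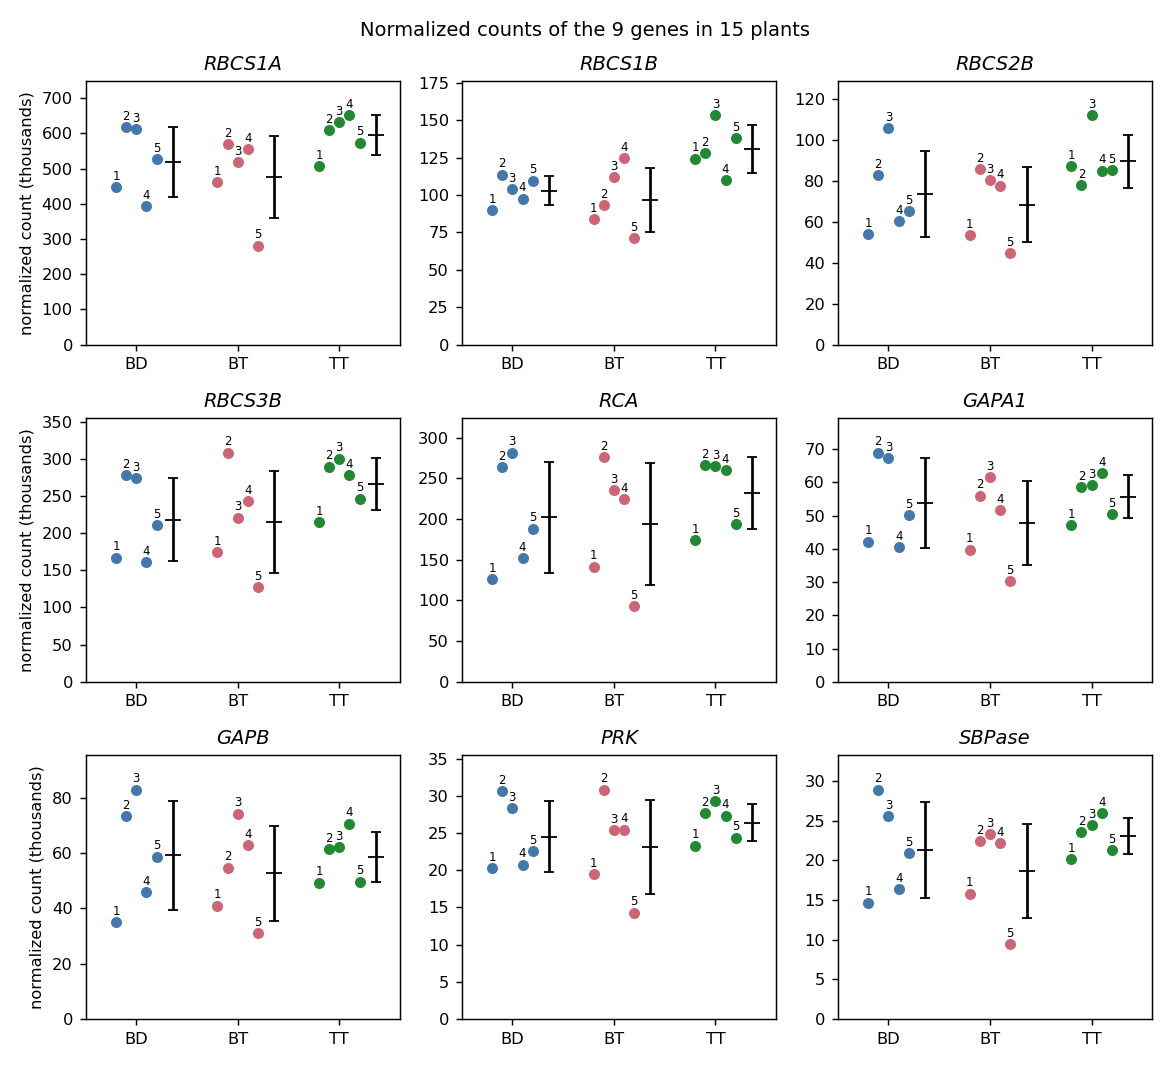
Normalized counts (vertical axes, from 0, in units of 1000) of the 9 genes in the 5 plants of each group, with replicate numbers beside the points and the mean with its SD as a black bar. BT replicate 5 is the lowest of the 15 plants in every panel, and the BD and BT points spread more widely than the TT points in all panels but that of RBCS1B, where BD spreads least.

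RCA, the activase, varied more between plants than the small subunits. Its normalized counts were 126599, 263856, 281758, 151574 and 188175 in BD. They were 141456, 275714, 235524, 224504 and 93073 in BT, and 174279, 266786, 264741, 260305 and 193929 in TT. The highest plant exceeded the lowest 3.03-fold, against 2.15-fold to 2.50-fold for the RBCS genes. The highest value was in BD and 4 of 5 TT values lay within the BD range above its median. The log2 fold changes were -0.10 (standard error 0.34) for BT against BD, 0.34 (0.34) for TT against BT and 0.24 (0.34) for TT against BD. The RCA normalized count, set against the summed RBCS normalized count, equalled 21.7% ± 3.47 of it in BD, 22.0% ± 3.87 in BT and 21.3% ± 2.56 in TT. Counts are not divided by transcript length, so this ratio compares groups and not the levels of the different genes. The 3 exact permutation tests of this ratio gave p = 0.929, 0.786 and 0.929.

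The subunits of chloroplast glyceraldehyde-3-phosphate dehydrogenase had a similar mean ratio in the 3 groups, while single plants varied. GAPB, which carries the regulatory tail of the enzyme, had normalized counts of 34897, 73393, 82887, 45747 and 58715 in BD. It had 40993, 54678, 74261, 62798 and 30899 in BT, and 49256, 61278, 62189, 70631 and 49662 in TT. The BD plants covered 2.38-fold and included the TT range. GAPA1, whose near copy GAPA-2 is listed separately and may share reads with it, spanned 40569 to 68984 among BD plants, 30403 to 61656 among BT plants and 47254 to 62705 among TT plants. The ratio of GAPB to GAPA1 counts was 1.08 ± 0.156 in BD, 1.09 ± 0.112 in BT and 1.05 ± 0.0523 in TT (SD, n = 5 each). The difference of its mean log2 between groups was at most 0.05 in size (exact 2-sided permutation tests, p = 0.913, 0.532 and 0.762). BD replicate 1 had the lowest ratio, 0.827. By TPM, which also divides by transcript length, GAPA1 was above GAPB in 11 of 15 plants. The log2 fold changes of GAPB and GAPA1 were 0.21 (standard error 0.27) and 0.25 (0.22) for TT against BT. For TT against BD they were 0.04 (0.27) and 0.08 (0.22), the smallest of the 9 genes.

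PRK and SBPase, enzymes of the regeneration phase that are switched on by thioredoxin in the light, had similar levels. SBPase normalized counts were 14672, 28909, 25579, 16370 and 20911 in BD. They were 15807, 22395, 23273, 22155 and 9405 in BT, and 20195, 23536, 24419, 25917 and 21269 in TT. BT replicate 5 lay below every other plant, BD replicate 2 was the highest, and the TT plants stayed within 1.28-fold of each other. PRK spanned 20280 to 30677 among BD plants, 14302 to 30826 among BT plants and 23317 to 29261 among TT plants, so that its TT plants lay inside both other ranges. The log2 fold changes for TT against BT were 0.38 (standard error 0.24) for SBPase and 0.24 (0.19) for PRK. For BT against BD they were -0.22 (0.24) and -0.12 (0.19).

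Over the 9 genes, none passed the adjusted p of 0.05 in any comparison, and neither did any other gene (percent called 0 of 21450 in each). At an unadjusted p under 0.05 in limma, 371 genes (1.73%) stood out in BT against BD, 2018 (9.41%) in TT against BT and 514 (2.40%) in TT against BD. Of the 9 genes this held for 0, 1 (RBCS1B, higher) and 0. Split by direction, 0.774% of all genes were higher and 0.956% lower in BT against BD, 4.38% and 5.03% in TT against BT, and 0.984% and 1.41% in TT against BD. edgeR and DESeq2 on the recovered reads also called 0 genes after adjustment. Both placed RBCS1B alone of the 9 genes under 0.05 unadjusted in TT against BT, and also in TT against BD. None of the 9 genes had groups that did not overlap, which in all genes occurred for 0.186%, 1.62% and 0.592%.

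All 9 log2 fold changes were below 0 in BT against BD, from -0.22 to -0.05 with a median of -0.12, where 49.9% of all genes were below 0 and 50.1% above, and the median of all genes was 0.00. All 9 were above 0 in TT against BT, from 0.21 to 0.45 with a median of 0.36, where 50.2% of all genes were above 0 and 49.8% below. All 9 were also above 0 in TT against BD, from 0.04 to 0.34 with a median of 0.21, where 49.4% of all genes were and 50.6% were below. The 9 genes are not independent of each other, since they varied together from plant to plant, and the 3 comparisons share plants in pairs. Among the 290 genes averaging 10000 or more normalized counts, the median was -0.07, 0.16 and 0.06 in the same order. The direction in BT against BD depended on single plants: without BT replicate 5, 7 of the 9 were above 0, with a median of 0.03. It was -0.07 without BD replicate 2 (2 of 9 above 0), -0.06 without BD replicate 3 (3 of 9) and -0.07 without BT replicate 1 (1 of 9), and the other fits without 1 plant had medians from -0.22 to -0.14. In TT against BD, 7 of 9 were above 0 without BD replicate 1 (median 0.09) and without BD replicate 4 (0.12), and 8 of 9 without TT replicate 4 (0.18). In TT against BT all 9 stayed above 0 without BT replicate 5, but the median fell to 0.15. Without the 4 plants with a raised chromosome stretch (leaving 4 BD, 2 BT and 5 TT), the medians were -0.20, 0.30 and 0.12.

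**Figure D3:**
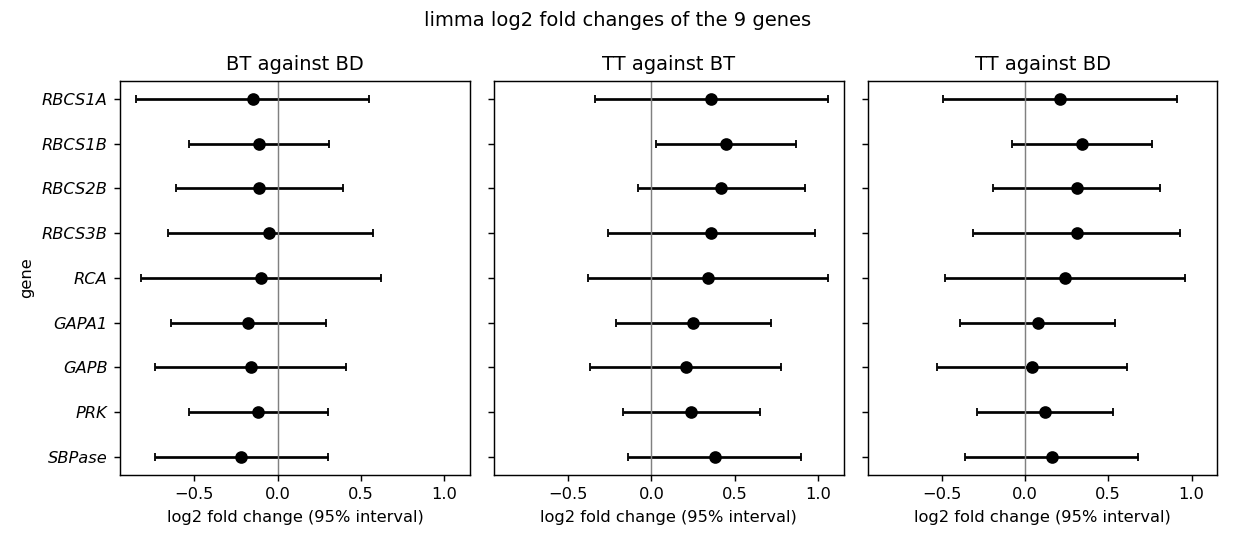
limma log2 fold changes (points) with 95% intervals (bars) of the 9 genes for BT against BD, TT against BT and TT against BD, on a common horizontal axis. Every interval crosses 0 except that of RBCS1B in TT against BT, which runs from 0.03 to 0.87 and is not adjusted for the number of genes.

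The largest differences were between sister plants. Each gene was set on a log2 scale against its own median over the 15 plants. In BT replicate 5 all 9 genes were at their lowest, from -1.27 (RCA) to -0.62 (RBCS1B), with a median of -0.93. BD replicate 1, BT replicate 1 and BD replicate 4 were next, with medians of -0.54, -0.48 and -0.41 and all 9 genes below their medians in each. BD replicate 5, TT replicate 1 and TT replicate 5 lay slightly below 0, at -0.08, -0.13 and -0.03. The other 8 plants lay between 0.00 (BT replicate 4) and 0.23 (BD replicate 2). The low plants thus belonged to BD and BT, and the TT plants covered only -0.13 to 0.21. In BT replicate 5 the 3 genes of chromosome 5, the raised chromosome of that plant, stood at -0.62, -0.84 and -0.93, and RBCS1A on chromosome 1 at -0.98. Whether the raised chromosome plays a part in these values was not tested.

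**Figure D4:**
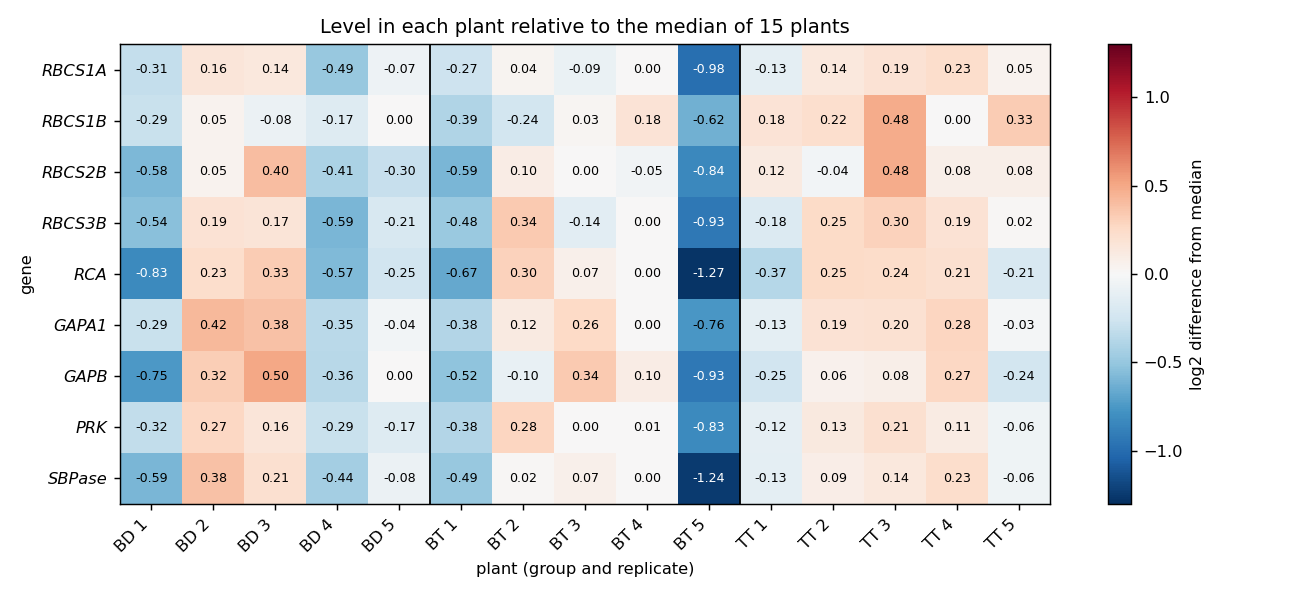
Log2 difference of each of the 9 genes (rows) from its median over the 15 plants (columns, 5 per group), with blue below and red above the median. The columns of BD replicates 1 and 4 and BT replicates 1 and 5 are blue for every gene, down to -1.27 for RCA in BT replicate 5.

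Spread within groups differed accordingly. The SD of log2 values was smallest in TT for 8 of the 9 genes, RBCS1B being smallest in BD, and largest in BT for 8 of 9, the exception being GAPB. Its median over the 9 genes was 0.38 in BD, 0.43 in BT and 0.18 in TT. Over all 21450 genes TT also had the smallest SD most often, in 54.8%, with medians of 0.30, 0.33 and 0.23. Among genes averaging 10000 or more normalized counts the share was 74.5%. Without BT replicate 5 the median SD of the 9 genes in BT was 0.27, below that of BD, and the SD was smallest in TT for 7 of the 9 genes.

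The pairwise correlation over the 15 plants describes how far the genes kept together. Over the 36 pairs Pearson's r on log2 values ranged from 0.59 to 0.97 with a median of 0.90, and Spearman's rho from 0.46 to 0.97 with a median of 0.77. With the group means taken out the median r was again 0.90. Without the 2 plants farthest from the median of the first gene of the pair it was 0.81. Among the highest were RBCS3B with PRK (r 0.97, rho 0.94) and RCA with PRK (0.97, 0.95), and GAPA1 with SBPase reached 0.97 and 0.97. RBCS1B was the member least like the rest: its 8 pairs had a median r of 0.69, against 0.92 for the 28 pairs without it, and 0.43 without the 2 farthest plants. The points share libraries and size factors, and the 3 RBCS genes of chromosome 5 also share reads.

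The rest of the pathway was read from lists of related genes. Of 15 other Calvin cycle genes, none had an unadjusted p under 0.05 in any comparison, and their median log2 fold change was -0.07 in BT against BD, 0.24 in TT against BT and 0.08 in TT against BD. The 3 with the smallest p in TT against BT were the transketolase TKL1 (0.31, standard error 0.16, p = 0.0649 in limma), the plastid ribose-5-phosphate isomerase gene AT3G04790 (0.27, 0.14, p = 0.0694 in limma) and CP12-3 (-0.37, 0.22, p = 0.114 in limma), a small protein that binds GAPDH and PRK. By plant, 7 of the 15 followed the median of the 9 genes with r above 0.9, such as the aldolase gene FBA1 and the phosphoglycerate kinase gene PGK1 (r 0.97 each, rho 0.97 and 0.90). FBA1 and PGK1 were named here for their high r. The aldolase gene FBA3, at a mean of 1856 normalized counts against 69469 for FBA2, ran the other way (r -0.77, rho -0.76), which was seen only after the values were known. TKL2 and CP12-3 also had a negative r (-0.25 and -0.21, rho -0.43 and 0.09). The median r of the 15 was 0.79. All 12 photorespiration genes, which recycle the product of Rubisco's reaction with oxygen, had positive r, with a median of 0.91. Their median log2 fold change was -0.09, 0.18 and 0.07 in the order above. None of them had an unadjusted p under 0.05 in any comparison, and those with the smallest p in TT against BT were the glycolate oxidase gene GOX2 (0.26, 0.16) and the glycine decarboxylase genes AT1G11860 (0.29, 0.24) and GLDP1 (0.24, 0.21).

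Genes for the large subunit and for Rubisco assembly were read from the same fit. Of 12, 5 had an unadjusted p under 0.05 in TT against BT, all higher in TT, where 4.38% of all genes were, and none passed adjustment; the median log2 fold change of the 12 was -0.07 in BT against BD, 0.30 in TT against BT and 0.15 in TT against BD. The 3 with the smallest p were the chaperonin genes Cpn60beta2 (AT3G13470; 0.48, standard error 0.16, p = 0.00744 in limma) and CPN60B (AT1G55490; 0.37, 0.16, p = 0.0339) and AT5G28500, annotated as a rubisco accumulation factor-like protein (0.31, 0.11, p = 0.0104). The last was also higher in TT than in BD (0.29, 0.11, p = 0.0164 in limma), the only one of the 12 under 0.05 in that comparison, and in BT against BD there was none. These genes followed the 9 genes less closely plant by plant than the photorespiration genes, with a median r of 0.61 and none above 0.9. rbcL had 3949 ± 1218 normalized counts in BD, 3986 ± 1727 in BT and 4135 ± 941 in TT (SD, n = 5 each). Its log2 fold change for TT against BT was 0.15 (0.31), and its lowest plant was BT replicate 5 with 1746. Chloroplast mRNA largely lacks poly(A) tails and the libraries were made from poly(A) RNA, so that its level cannot be set against that of the small subunits. Its pairs with the 9 genes had a median r of 0.63, which fell to 0.27 without the 2 farthest plants.

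Of 8 regulators, none had an unadjusted p under 0.05 in any comparison, and their median log2 fold change was -0.01, 0.07 and 0.06. The smallest p belonged to the plastid signalling gene GUN1 in TT against BT (0.26, standard error 0.14, p = 0.0739 in limma) and to the GATA factor gene GNC in TT against BD (0.41, 0.22, p = 0.0785). GLK1 and GLK2, factors known to activate photosynthesis genes, showed r of -0.48 and 0.50 with the median of the 9 genes. HY5, a light-response factor that binds G-boxes, showed -0.61. TRXF1, a thioredoxin f that activates Calvin cycle enzymes, showed 0.92 and was the only one of the 8 above 0.9. GUN1, GNC, CGA1 and TRXF2 showed -0.07, 0.21, 0.36 and 0.54, and the median r of the 8 regulators was 0.28.

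Levels of several clock genes followed or opposed those of the 9 genes from plant to plant. TOC1, a gene known to peak in the evening, had normalized counts of 2782, 1106, 896, 1568 and 1510 in BD, 2236, 1007, 871, 1201 and 2869 in BT and 1909, 1024, 1053, 987 and 1199 in TT. The 4 plants lowest in the 9 genes were among the 5 highest in TOC1, together with TT replicate 1. Over the 15 plants TOC1 and the median of the 9 genes had r -0.91 and rho -0.85, and r -0.84 without the 2 farthest plants. For PRR5 these were -0.88, -0.93 and -0.82, and for the evening gene ELF4 -0.93, -0.88 and -0.90. CCA1, a morning gene, had the opposite sign (0.77, 0.86 and 0.87), with 140 to 268 normalized counts in the 4 low plants and 214 to 644 in the others, so that the ranges overlapped. LHY, its partner, showed only 0.31. The other clock genes of the list, LUX, GI, PRR7 and PRR9, showed r of -0.45, -0.39, -0.04 and 0.61. The median r of the 9 clock genes was -0.39. TOC1, PRR5, ELF4 and CCA1 were picked out here after their values were seen.

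**Figure D5:**
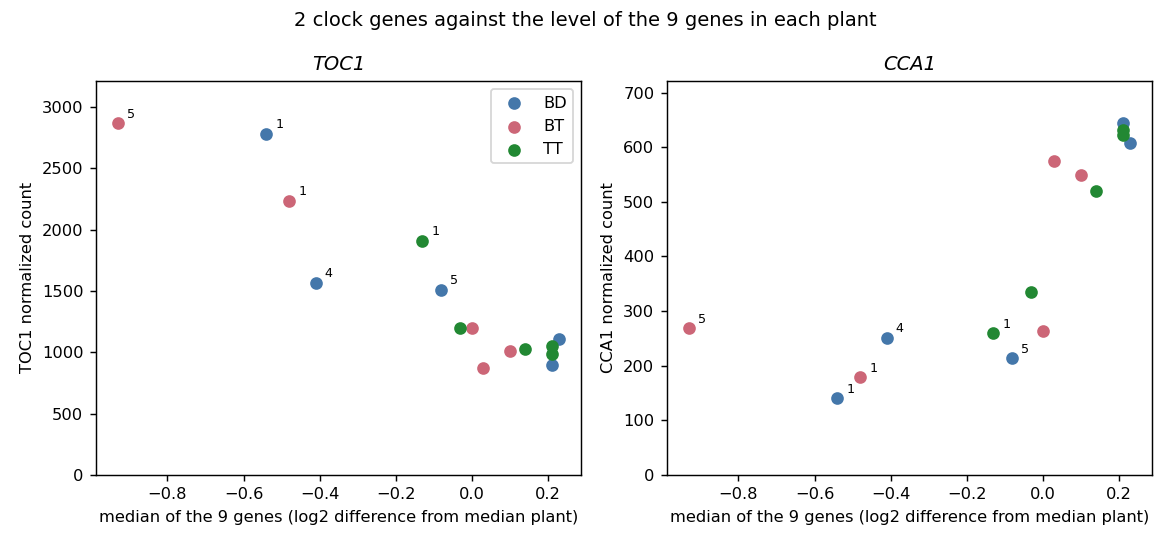
Normalized counts of TOC1 (left) and CCA1 (right), on vertical axes from 0, against the median log2 difference of the 9 genes from their 15-plant medians in each plant, coloured by group. Replicate numbers are given for plants below -0.05; TOC1 is highest in BT replicate 5 and BD replicate 1 (2869 and 2782), at the left end, and CCA1 is highest in BD replicate 3 (644), towards the right end.

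By group, TOC1 had 1572 ± 732 normalized counts in BD, 1637 ± 873 in BT and 1235 ± 386 in TT (SD, n = 5 each), without a difference beyond this spread. The only clock gene of 9 with an unadjusted p under 0.05 was LUX, lower in TT than in BD (-0.39, standard error 0.16, p = 0.0236 and adjusted p = 1.00 in limma), and the median of the 9 clock genes was 0.08, 0.02 and 0.02. The labels give no time of harvest for single plants. The part of the clock genes, and of whatever they follow, in the values of the 9 genes was not tested. The read total of a plant had r 0.13 and rho 0.01 with the median of the 9 genes. Of 5 starvation and senescence genes, 4 were listed and none had an unadjusted p under 0.05 in any comparison, with medians of 0.46, -0.99 and -0.58 on the log2 scale. ASN1 was listed between 0 and 107 normalized counts, with r -0.24 and rho -0.02. DIN2, between 0 and 727, had r -0.53, and SEN1 went the other way with r 0.32 and rho 0.58. The medians of this list rest partly on ASN1 and DIN2, whose counts reached down to 0. The senescence gene SAG13 had r -0.67, and SAG12 is not among the listed genes. The 4 mesophyll markers followed the 9 genes with r of 0.87 to 0.94, about as closely, in size, as TOC1, PRR5 and ELF4. Of the other leaf markers, the phloem genes SUC2 and APL showed 0.73 and 0.39, the guard cell genes MYB60, FAMA and KAT1 0.68, 0.17 and -0.35, and the epidermal genes ATML1 and PDF1 0.48 and 0.31. The summed TPM of the epidermal markers was 82.0 to 146 in BD, 78.3 to 149 in BT and 119 to 181 in TT, with 1 of the 2 at an unadjusted p under 0.05 in some comparison, as was 1 of 3 guard cell, 1 of 2 phloem and 1 of 2 listed root markers. None of the mesophyll, xylem, listed shoot meristem or floral markers was. These counts pool 3 comparisons, in which 1.73% (BT against BD), 9.41% (TT against BT) and 2.40% (TT against BD) of all genes were under 0.05. With so few markers, the counts do not show that a cell type differed between groups. The part of these cell types in the values of the 9 genes was not tested.

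Last, the genes most alike to 5 of the members were drawn from 16252 genes averaging 50 or more normalized counts, by Pearson's r on rlog values over the 15 plants. For RBCS1A they were CSP41A, AT1G21500 and AT1G52510 (r 0.98, 0.98 and 0.97). For RBCS3B they were GUN4, a regulator of chlorophyll synthesis, PSBO1, a subunit of the oxygen-evolving complex, and ACS10 (0.98, 0.98 and 0.97). RCA was nearest to HCF136, an assembly factor of photosystem II, the antenna gene LHCB2.3 and PSBO2 (0.99, 0.98 and 0.98). GAPB was nearest to ZKT, AT1G16080 and AT2G04039 (0.99, 0.98 and 0.98), and SBPase to AT3G61870, LrgB and PnsB1, a subunit of the chloroplast NDH complex (0.99 each). Such closeness was common: 246 genes had r above 0.9 with RBCS1A, 139 with RBCS3B, 189 with RCA, 180 with GAPB and 251 with SBPase.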

How the data were processed

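Per the labels, poly(A) RNA from the aerial tissue of 15 plants (750 ng each, 10 PCR cycles) was sequenced as 75 bp single reads in 4 technical replicates, 60 samples, merged by the authors to 1 column for each plant. Reads were trimmed by the authors with Trimmomatic 0.38; they aligned them with STAR 2.6.0c (multiple matches kept) and quantified genes with Salmon 0.11.3 without strand, so that overlapping genes on opposite strands share reads. They kept genes with counts in at least 3 of the 5 plants of a group and deposited DESeq2 normalized counts (a signal per gene, counts divided by a size factor), rlog values (log2) and TPM. Whole reads were recovered from the steps of the normalized counts, with 100.0% of values whole within 0.001.

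Groups were compared with limma 3.58.1 (R 4.3.3, trend, all plants in 1 fit, 2-sided, Benjamini-Yekutieli) on log2(normalized count + 1), a scale that understates changes of low genes, and 4 measures by exact permutation tests (Python 3.11.15, scipy 1.17.1). Alternatives used edgeR 4.0.16, DESeq2 1.42.0, TPM (pseudocount 0.1), rlog, other pseudocounts and filters, and fewer plants. The fit was also run on simulated counts, drawn independently with the same dispersion for every gene. They lack the variation between plants that the genes share here, so they do not test the fit under it. The members, lists and tests were chosen with earlier results of these data known. Named genes were the 9 members and rbcL, genes of each list with the smallest p per comparison and the 3 genes most alike to 5 members; others are marked in the text. Of 21450 identifiers, 21283 matched TAIR10.1.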

Additional observations from a re-analysis of the deposited data

Results flagged for a closer look

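Of 39 groups of 5 plants looked at (9 genes and 4 derived measures in 3 groups), 1 held a plant whose gap to its nearest neighbour, divided by the range of the group, exceeded 0.71, the 95% limit for 5 values. This was RBCS2B in TT replicate 3, with 112186 normalized counts against 78165 to 87543 in the other TT plants. About 1 in 20 groups is expected past this limit, so a single one is no more than chance gives. RBCS1B was also at its highest in that plant, and both genes share reads with RBCS3B.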

How the results depend on the processing

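No gene passed the adjusted threshold in any comparison under any alternative run, and none of the 9 genes did. Counts at an unadjusted p under 0.05 moved more. For BT against BD, 371 became 236 over genes averaging 10 or more normalized counts, and 226 to 1023 with 1 plant left out (lowest without BD replicate 2, highest without BD replicate 4). For TT against BT, 2018 became 1325 without the replicate 1 plants, 778 without BD 4, BT 2, BT 3 and BT 5, and 992 to 3288 with 1 plant left out (without BT replicate 5 and BT replicate 2). For TT against BD, 514 became 805 in a fit of 2 groups only and 346 to 1236 with 1 plant left out (without TT replicates 5 and 4). Fewer plants or genes entered each of these fits, and the cause was otherwise not tested.

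Of 351 fold changes of the 9 genes under other settings, 5 changed sign, all in TT against BD and all near 0. GAPB became -0.02 in edgeR, -0.01 in DESeq2, -0.03 without the 4 plants with a raised chromosome stretch and -0.07 without the replicate 1 plants, and GAPA1 became -0.02 without those 4 plants. With 1 plant left out, 18 of 270 changed sign. In BT against BD the ranges that crossed 0 were -0.24 to 0.03 for RBCS1A, -0.21 to 0.03 for RBCS2B, -0.19 to 0.13 for RBCS3B, -0.25 to 0.14 for RCA, -0.34 to 0.01 for GAPB, -0.23 to 0.05 for PRK and -0.35 to 0.00 for SBPase. In TT against BD they were -0.02 to 0.18 for GAPA1 and -0.13 to 0.18 for GAPB. None crossed 0 in TT against BT, where the lowest values came without BT replicate 5 in all 9 genes. RBCS1B then had 0.35 and GAPB 0.03.

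Among the derived measures, the RBCS sum in BT against BD ran from -0.20 to 0.05 with 1 plant left out. The share of RBCS1A became 0.495 percentage points in BT against BD without the 4 plants and 0.815 in TT against BT without the replicate 1 plants, and the latter ran from -1.19 to 0.543 with 1 plant left out. The log2 ratio of GAPB to GAPA1 in BT against BD became -0.06 without the replicate 1 plants and ran from -0.08 to 0.06, and in TT against BD from -0.13 to 0.01. The log2 ratio of RCA to RBCS in BT against BD became -0.08 without the 4 plants and -0.01 without the replicate 1 plants, and ran from -0.07 to 0.09. In TT against BT it became 0.06 without the 4 plants and ran from -0.11 to 0.03, and in TT against BD it ran from -0.11 to 0.05. None of these passed an adjusted threshold.

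Whether same-numbered plants were handled together is not stated and was not tested. Their deviations correlated with mixed signs. For replicates 1 to 5, r was 0.57, 0.49, 0.48, -0.70 and -0.55 in BT against BD. It was 0.44, 0.01, 0.17, 0.35 and -0.15 in TT against BT, and 0.34, -0.14, 0.11, -0.42 and 0.43 in TT against BD. The sign was positive in every comparison for replicates 1 and 3. In replicate 1 the median log2 difference of the 9 genes was -0.54 (BD), -0.48 (BT) and -0.13 (TT). In replicate 3 it was 0.21, 0.03 and 0.21. With the replicate number as a replicate block, 372, 2035 and 629 genes had an unadjusted p under 0.05 and 0 passed adjustment. The sign-flip test of the RBCS sum, whose smallest possible p is 0.0625, gave that value for TT against BT and for TT against BD. RBCS2B (p = 0.0489) joined RBCS1B (p = 0.0384) under an unadjusted 0.05 in limma with the block in TT against BT, as it did with TPM. RBCS1B itself missed 0.05 in 9 of 23 alternatives: 6 with 1 plant left out, 0.0811 in a fit of 2 groups only, 0.104 without the replicate 1 plants and 0.186 without the 4 plants with a raised chromosome stretch (lowest 0.00396, in DESeq2). The 95% intervals of the fold changes of the 9 genes reached from -0.85 (RBCS1A, BT against BD) to 1.06 (RBCS1A and RCA, TT against BT).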
